A study of Homo sapiens with 10 samples.

Results

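Histone genes were compared in HuCCT1, an established human cell line from cholangiocarcinoma (bile duct cancer), between cells carrying a vector labelled YAPS94A and cells carrying an empty vector. A histone gene was a protein-coding gene whose current or older symbol belongs to the histone families, and each was read by its brightest probe set annotated to that gene alone. This gave 54 histone genes among the 19775 genes measured, of which 2, H2AJ and H3-4, were found by an older symbol. Another 34 protein-coding histone genes of these families in RefSeq had no probe set of their own. 5 arrays held RNA of cells with YAPS94A and 5 held RNA of cells with empty vector, and both were grown in the same RPMI-based medium with serum. YAP1, a co-activator of transcription, is held in the cytoplasm by the Hippo kinases and acts with TEAD factors in the nucleus. Labels and title give its substitution as S94A, which impairs contact with TEAD, but the design text gives S127A, which removes a Hippo phosphorylation site, and the arrays cannot tell these apart. Separate cultures are not named for the arrays of 1 vector, so every p-value covers array-to-array spread alone, possibly technical.

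Histones package DNA. Pairs of H2A with H2B and of H3 with H4 form the nucleosome core, and the linker histone H1 binds where DNA enters and leaves it. Most histone genes lie in clusters, lack introns and are switched on in S phase under the co-activator NPAT, and most of their mRNAs end in a stem-loop held by SLBP in place of a poly(A) tail. Some, H2BC5, H2BC12 and H2BC21 among them, are also known to give polyadenylated transcripts. Replacement variants such as H3.3, H2A.Z and macroH2A are made outside S phase as well, from polyadenylated mRNAs, and mark particular parts of chromatin. The labels' protocols name a NuGEN Ovation kit for amplification before biotin labelling, and how RNA without a poly(A) tail was primed is not stated there.

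Of the 36 core histone genes (H2A, H2B, H3 and H4) 20 were lower with YAPS94A and 1 was higher, and the replacement variant MACROH2A2 had the largest rise. Of the 54 histone genes, 21 were lower and 4 were higher at an adjusted p under 0.05, and 29 did not pass. Over all 19775 genes, 17.6% were lower and 18.6% were higher, so 38.9% lower among histone genes stood above that background and 7.41% higher stood below it. The median difference (YAPS94A minus empty vector, on the log2 scale) was -0.124 over the 54 histone genes and -0.004 over all genes. For 18 histone genes every YAPS94A array lay below every empty vector array and for 4 every YAPS94A array lay above, where the groups of all genes did not overlap in 13.8% downward and 15.3% upward. Of the 21 lower genes, 7 fell by more than 1.5-fold.

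**Figure D1:**
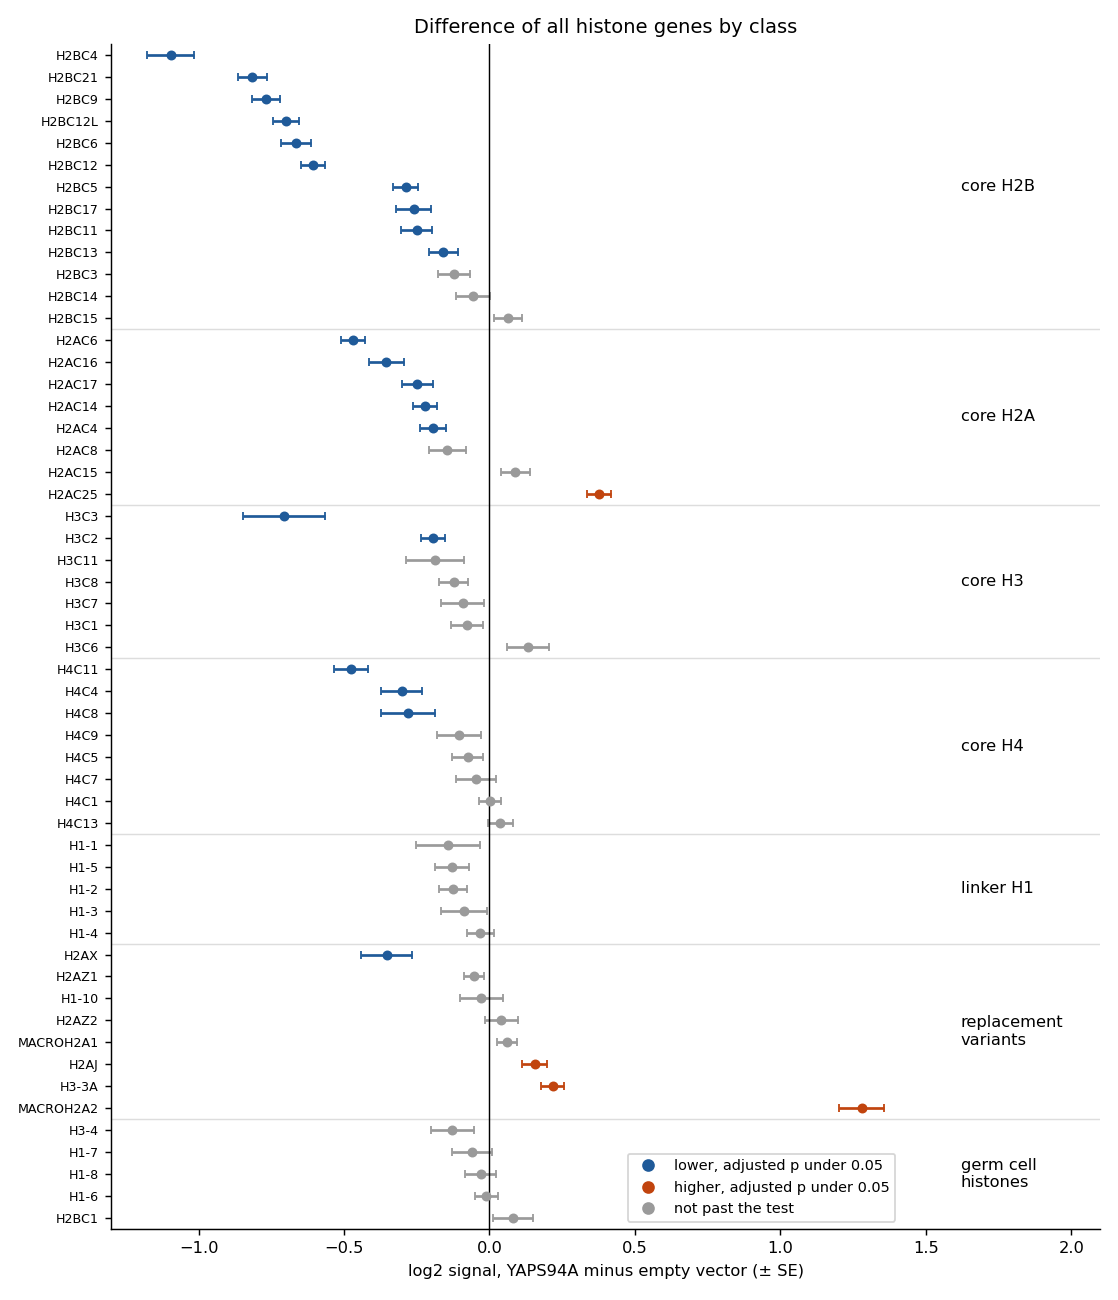
Difference in log2 signal, YAPS94A minus empty vector, with its standard error for each of the 54 histone genes, grouped by class and ordered within each class. H2BC4 lies farthest to the left at -1.10 and MACROH2A2 farthest to the right at 1.28, and no gene of linker H1 passed the test.

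The classes of histone differed in their counts. Among all 19775 genes 17.6% were lower and 18.6% higher, and 8524 were at an unadjusted p under 0.05. Of all genes above the median level 25.9% were lower and 26.5% higher. H2B had 10 of 13 genes lower and none higher by limma's test, with 11 at an unadjusted p under 0.05 and a median of -0.288. H2A had 5 of 8 lower and 1 higher, H3 had 2 of 7 lower and H4 had 3 of 8 lower, with medians of -0.208, -0.123 and -0.09. Among the 8 replacement variants 1 was lower and 3 were higher. None of the 5 linker H1 genes of somatic cells and none of the 5 germ cell histones passed limma's test, and 1 gene of these, H1-2, was at an unadjusted p under 0.05. Differences between classes were not tested.

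Before the values of single genes, the upstream stretches of some of those that results turn on are shown, because the genes of H2A and H2B share short promoter elements. The sequences are from RefSeq on GRCh38.p14, whose promoter table held 51 of the 54 histone genes, and each runs 5′ to 3′ on the strand of the named gene up to the base before its start. Capitals mark 3 elements, searched on both strands with any overlap counted, which are the octamer ATTTGCAT (bound by the POU factor POU2F1), the CCAAT box (CCAAT) and the TATA box (TATAAA). H2BC4 had the largest fall and shares its window with H2AC6, which starts 246 bases away in the opposite direction, at chr6:26123927-26124171 (minus strand). H2BC21 (chr1:149886683-149886832, minus strand) and H2BC12 (chr6:27146859-27147008, minus strand) are other H2B genes that fell. H2AC25 (chr1:228457874-228458023, minus strand) and MACROH2A2 (chr10:70052696-70052845, plus strand) rose.
H2BC4: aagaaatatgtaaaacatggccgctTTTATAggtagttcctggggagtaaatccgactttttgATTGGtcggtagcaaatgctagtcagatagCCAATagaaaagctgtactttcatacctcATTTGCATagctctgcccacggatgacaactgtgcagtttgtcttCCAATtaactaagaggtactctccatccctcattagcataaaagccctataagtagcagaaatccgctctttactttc
H2BC21: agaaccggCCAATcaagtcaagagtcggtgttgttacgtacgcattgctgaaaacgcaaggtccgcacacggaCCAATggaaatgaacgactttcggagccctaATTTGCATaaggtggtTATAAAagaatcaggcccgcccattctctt
H2BC12: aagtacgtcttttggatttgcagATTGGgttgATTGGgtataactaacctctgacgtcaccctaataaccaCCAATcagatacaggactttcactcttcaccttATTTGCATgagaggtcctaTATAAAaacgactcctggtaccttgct
H2AC25: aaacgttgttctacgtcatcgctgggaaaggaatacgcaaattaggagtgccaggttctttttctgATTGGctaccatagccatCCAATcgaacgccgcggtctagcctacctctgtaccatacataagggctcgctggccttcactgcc
MACROH2A2: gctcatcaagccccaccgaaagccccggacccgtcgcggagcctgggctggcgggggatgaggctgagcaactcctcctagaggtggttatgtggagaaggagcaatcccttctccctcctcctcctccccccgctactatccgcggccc

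Each of the 3 H2B windows printed held 1 octamer and 2 or 3 CCAAT boxes, the H2AC25 window held 2 CCAAT boxes and no octamer, and the MACROH2A2 window held none of the 3 elements. In the 250 bases before the start, the octamer or its reverse ATGCAAAT was found for 16 of the 51 histone genes (31.4%), against 2.03% of all 27305 genes in the table. The 16 were 6 of 8 H2A genes, 9 of 12 H2B genes and the testis gene H2BC1, and 12 of them were lower with YAPS94A and 0 higher by limma. Of the 35 histone genes without it, 8 were lower. None of the 5 linker H1, 6 H3, 7 H4 and 8 variant genes held the octamer. The genes with and without it thus also differ in class. Over all genes 17.6% were lower and 18.6% higher. The TATA box was in 31 of the 51 (13% of all genes), of which 16 were lower, as were 4 of the 20 without it. The CCAAT box was in 44 (37% of all genes), of which 17 were lower, as were 3 of the 7 without it. Differences between genes with and without an element were not tested. The letters GGAATG, a core that TEAD factors are known to bind, were in 5 of the 51, or 9.8%, against 14.3% of all genes, and 1 of these 5, H4C8, was lower. Such matches are letters in a window and not shown to be bound.

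H2BC4, which encodes a core histone H2B, had the largest fall of all 54, with a mean below 7.63, the median over all genes. Its log2 signals were 7.27, 6.99, 7.03, 7.01 and 6.77 with YAPS94A, against 8.06, 8.26, 8.04, 8.05 and 8.13 with empty vector. No YAPS94A array reached the lowest empty vector array, and the difference was -1.10 ± 0.080 (SE), a 2.14-fold decrease (adjusted p = 5.2e-07). H2BC21, an H2B gene on chromosome 1, read 9.62, 9.59, 9.59, 9.73 and 9.45 with YAPS94A and 10.36, 10.43, 10.40, 10.48 and 10.38 with empty vector. The groups lay well apart here too, by -0.81 ± 0.051 or 1.76-fold (adjusted p = 1.37e-07).

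Some bright H2B genes fell by amounts similar to that of H2BC21. H2BC9 read 9.11, 9.09, 9.15, 9.08 and 9.07 with YAPS94A, against 9.86, 9.97, 9.76, 9.78 and 9.97 with empty vector (-0.77 ± 0.049, adjusted p = 1.54e-07). The YAPS94A arrays were closely bunched and all lower. For H2BC6 the signals were 10.01, 10.05, 10.20, 10.17 and 9.95 with YAPS94A and 10.66, 10.77, 10.72, 10.79 and 10.77 with empty vector (-0.67 ± 0.052, adjusted p = 9.51e-07). H2BC12 gave 11.69, 11.55, 11.64, 11.62 and 11.52 with YAPS94A, against 12.16, 12.24, 12.16, 12.23 and 12.24 with empty vector, a difference of -0.61 ± 0.041 (adjusted p = 2.73e-07). In neither gene did the groups overlap. H2BC12L, a close copy of H2BC12 on chromosome 21, read 10.66, 10.63, 10.81, 10.76 and 10.64 with YAPS94A and 11.33, 11.38, 11.38, 11.47 and 11.44 with empty vector (-0.70 ± 0.046, adjusted p = 2e-07). H2BC9, H2BC6 and H2BC12L are read by _x_at probe sets, whose probes can also bind related transcripts, so signal may be shared between these genes. H2BC4 and H2BC12 are read by plain _at probe sets, and H2BC21 by an _s_at probe set.

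The remaining H2B genes past the test differed by less. H2BC5 was at 10.79, 10.78, 10.90, 10.89 and 10.80 with YAPS94A, against 11.08, 11.18, 11.03, 11.17 and 11.15 with empty vector (-0.29 ± 0.042, adjusted p = 0.000187), again on an _x_at probe set. H2BC11 read 6.83, 6.86, 7.05, 6.93 and 6.78 with YAPS94A and 7.13, 7.03, 7.19, 7.15 and 7.20 with empty vector (-0.25 ± 0.054, adjusted p = 0.00291). The H2BC11 groups overlapped in 1 place, where YAPS94A array 3 lay above empty vector array 2. H2BC17 gave 4.93, 4.94, 4.98, 5.01 and 4.84 with YAPS94A, against 5.12, 5.26, 5.14, 5.40 and 5.08 with empty vector (-0.26 ± 0.061, adjusted p = 0.0052). Its mean lay below 5.34, the lower quartile of gene means, where a signal may be near background. H2BC13 was lowest in significance, with 6.07, 6.05, 5.91, 6.11 and 6.0 with YAPS94A and 6.15, 6.30, 6.21, 6.16 and 6.11 with empty vector (-0.16 ± 0.049, adjusted p = 0.0247). The lowest empty vector array and the highest YAPS94A array both rounded to 6.11. The call of H2BC13 was lost without any 1 of 4 arrays (YAPS94A 3 or 5, empty vector 2 or 3), with adjusted p between 0.0533 and 0.0618. H2BC3, H2BC14 and H2BC15 did not pass, at -0.12, -0.06 and 0.06. All 6 H2B genes whose mean lay above 7.63, the median over all genes, were lower, as were 4 of the 7 below it, and of all genes above that median 25.9% were lower and 26.5% higher.

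**Figure D2:**
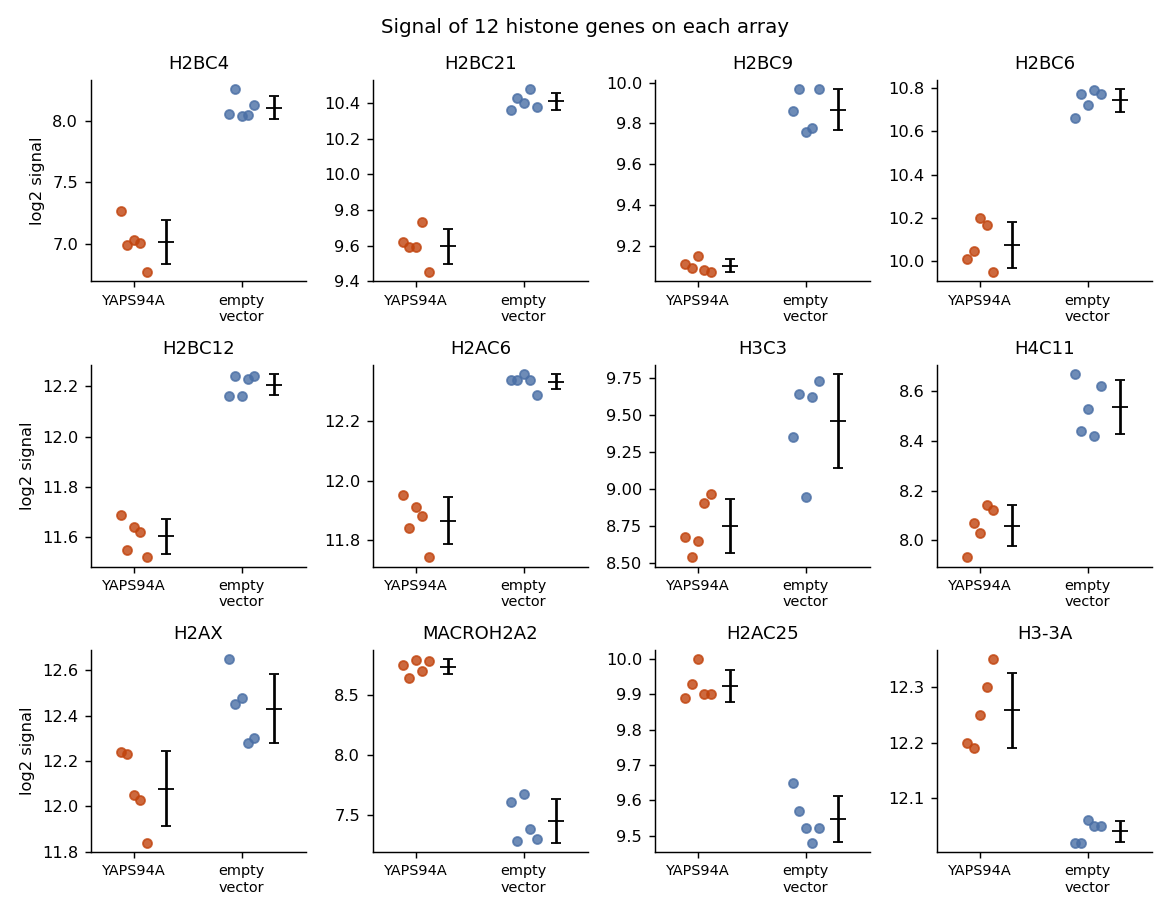
Log2 signal of 12 histone genes on each array, with YAPS94A on the left and empty vector on the right of each panel, and a bar for the mean ± SD of 5 arrays. The vertical scale differs between panels, the groups overlap only in H3C3, and MACROH2A2, H2AC25 and H3-3A lie higher with YAPS94A.

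H2A genes moved in both directions. H2AC6, the partner of H2BC4 in the shared window printed above, read 11.95, 11.84, 11.91, 11.88 and 11.74 with YAPS94A, against 12.34, 12.34, 12.36, 12.34 and 12.29 with empty vector. The empty vector arrays were nearly equal and all higher, and the difference was -0.47 ± 0.042 (adjusted p = 2.97e-06). H2AC25, of the small histone cluster that older symbols call HIST3, went the other way, with 9.89, 9.93, 10.00, 9.90 and 9.90 with YAPS94A and 9.65, 9.57, 9.52, 9.48 and 9.52 with empty vector (0.38 ± 0.041, adjusted p = 1.62e-05). It was the 1 core histone gene that rose, and its second probe set rose as well, by 0.27 ± 0.058.

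Among the dimmer H2A genes, H2AC16 read 4.56, 4.46, 4.69, 4.58 and 4.67 with YAPS94A, against 4.99, 4.99, 4.95, 4.77 and 5.05 with empty vector (-0.36 ± 0.060, adjusted p = 0.000559), with a mean below the lower quartile. H2AC17 gave 6.91, 7.10, 6.97, 7.0 and 7.06 with YAPS94A and 7.36, 7.33, 7.20, 7.26 and 7.14 with empty vector (-0.25 ± 0.052, adjusted p = 0.0027). Neither pair of groups overlapped. H2AC14, on an _x_at probe set, was at 9.17, 9.10, 9.20, 9.23 and 9.20 with YAPS94A, against 9.39, 9.49, 9.31, 9.43 and 9.40 with empty vector (-0.22 ± 0.043, adjusted p = 0.00133). H2AC4 read 6.82, 6.87, 6.69, 6.74 and 6.71 with YAPS94A and 7.0, 7.02, 6.98, 6.89 and 6.89 with empty vector (-0.19 ± 0.046, adjusted p = 0.00548). These falls were between 1.14-fold and 1.28-fold with no overlap of the groups. H2AC8, the brightest core gene that did not pass, was at 8.94, 9.04, 9.05, 9.21 and 8.90 with YAPS94A and 9.27, 9.25, 9.16, 9.13 and 9.05 with empty vector. Its groups overlapped, and the difference of -0.14 ± 0.063 had a 95% interval of -0.28 to -0.01 (adjusted p = 0.0987). H2AC15 was at 0.089 ± 0.049 on its brighter probe set, while its dimmer one was lower (-0.19 ± 0.056, adjusted p = 0.0272 over all probe sets).

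Fewer genes of H3 and H4 passed the test. H3C3 read 8.68, 8.54, 8.65, 8.91 and 8.97 with YAPS94A, against 9.35, 9.64, 8.95, 9.62 and 9.73 with empty vector (-0.71 ± 0.14, adjusted p = 0.00171). Empty vector array 3 stood at 8.95 and fell inside the YAPS94A range, and H3C3 had the largest SE of the 21 lower genes. H3C2 gave 5.90, 5.92, 6.08, 5.97 and 6.03 with YAPS94A and 6.16, 6.23, 6.13, 6.15 and 6.18 with empty vector (-0.19 ± 0.042, adjusted p = 0.00288), with no overlap. H3C11, H3C8, H3C7 and H3C1 were between -0.19 and -0.08 and H3C6 was at 0.13, and none of these 5 passed limma's test. H3C8 of these was at an unadjusted p under 0.05.

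H4C11, read by an _x_at probe set, was the H4 gene with the largest fall, with 7.93, 8.07, 8.03, 8.14 and 8.12 with YAPS94A against 8.67, 8.44, 8.53, 8.42 and 8.62 with empty vector. The groups were apart, by -0.48 ± 0.059 (adjusted p = 4.83e-05). H4C4 read 5.49, 5.37, 5.38, 5.28 and 5.56 with YAPS94A and 5.84, 5.58, 5.85, 5.72 and 5.60 with empty vector (-0.30 ± 0.070, adjusted p = 0.00454). H4C8 gave 6.28, 6.40, 6.65, 6.57 and 6.59 with YAPS94A, against 7.06, 6.80, 6.74, 6.67 and 6.61 with empty vector (-0.28 ± 0.093, adjusted p = 0.0339). The H4C8 groups overlapped where YAPS94A array 3 lay above empty vector array 5. The call of H4C8 was lost when array numbers entered the fit as a block (adjusted p = 0.0697), and without the arrays numbered 1 and 2 the difference was -0.069. Its dimmer probe set was lower with no overlap (-0.23 ± 0.050, adjusted p = 0.00505 over all probe sets). The other 5 H4 genes lay between -0.10 and 0.04.

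Linker histones showed no call. H1-2, the brightest of them, read 11.03, 10.99, 11.10, 11.20 and 11.18 with YAPS94A and 11.30, 11.16, 11.21, 11.21 and 11.23 with empty vector. YAPS94A arrays 4 and 5 lay above empty vector array 2, and the difference was -0.12 ± 0.048 with a 95% interval of -0.23 to -0.02 (adjusted p = 0.0646). H1-2 passed among genes above the median level (0.0412), without YAPS94A array 4 (0.0381) or 5 (0.0455), and relative to its neighbouring genes (0.00839). H1-5, H1-1, H1-3 and H1-4 were at -0.128, -0.144, -0.087 and -0.032, and the lowest bound of their 95% intervals was -0.39, for H1-1. All 5 differences were below 0.

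Replacement variants moved in both directions. MACROH2A2, one of 2 genes for macroH2A, a large variant tied to repressed chromatin, had the largest rise of all 54. Its signals were 8.75, 8.64, 8.79, 8.70 and 8.78 with YAPS94A, against 7.61, 7.29, 7.68, 7.39 and 7.30 with empty vector. Every YAPS94A array was far above the empty vector arrays, by 1.28 ± 0.077 or 2.43-fold (adjusted p = 1.02e-07). The gene lies on chromosome 10, where its 30 nearest non-histone genes above the median level had a median difference of -0.001. MACROH2A1, its partner gene, was at 0.061 ± 0.033 on the brightest of 7 probe sets (adjusted p = 0.194). Of the other 6 MACROH2A1 probe sets 1 was higher (0.17 ± 0.060) and 1 was lower (-0.18 ± 0.059), so no direction was common to them.

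H3-3A, which encodes H3.3, the H3 variant placed outside replication, read 12.20, 12.19, 12.25, 12.30 and 12.35 with YAPS94A and 12.02, 12.02, 12.06, 12.05 and 12.05 with empty vector. The groups were apart, by 0.22 ± 0.038 or 1.16-fold (adjusted p = 0.000696). H2AX, the variant phosphorylated at DNA breaks, went down instead, with 12.24, 12.23, 12.05, 12.03 and 11.84 with YAPS94A against 12.65, 12.45, 12.48, 12.28 and 12.30 with empty vector (-0.35 ± 0.088, adjusted p = 0.00754). Its second bright probe set gave the same difference, -0.35 ± 0.091, while of the 2 dim ones 1 was lower (-0.20 ± 0.064) and 1 did not pass (-0.088 ± 0.055).

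H2AJ, a variant known to build up in senescent human cells, had a direction that depended on the probe set. On the brightest it read 11.40, 11.48, 11.50, 11.55 and 11.50 with YAPS94A, against 11.31, 11.39, 11.23, 11.39 and 11.34 with empty vector (0.16 ± 0.043, adjusted p = 0.0135). A second bright _x_at probe set was also higher (0.16 ± 0.046), but the 2 dim probe sets were lower without overlap (-0.67 ± 0.050 and -0.52 ± 0.067). H2AJ lies on chromosome 12 among neighbours with a median of -0.286. H2AZ1, one of 2 genes for the promoter variant H2A.Z, read 13.39, 13.36, 13.36, 13.33 and 13.30 with YAPS94A and 13.37, 13.44, 13.43, 13.41 and 13.36 with empty vector. Its groups overlapped, with a 95% interval of -0.13 to 0.02 (adjusted p = 0.258). H2AZ2 was at 0.041 ± 0.058 on its brightest probe set, and 2 of its other 3 probe sets were lower (-0.16 ± 0.047 and -0.18 ± 0.056) while the third was at 0.22 ± 0.076 and did not pass (adjusted p = 0.0529 over all probe sets). H1-10, a linker variant, was at -0.028 ± 0.073. The germ cell histones H1-6, H1-7, H1-8, H2BC1 and H3-4 lay between -0.13 and 0.08, and all of their groups overlapped.

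Probe sets annotated to several histone genes at once are not among the 54 readings and gave a second view of the families. Of 25 such probe sets, 12 were lower and 3 higher in the fit over all 54613 probe sets, where 14.7% were lower and 13.9% higher. All 5 probe sets shared by H2A genes of the clusters alone were lower (-0.20 to -0.58), the largest fall being in the 3 shared by H2AC18 and H2AC19 (-0.58 ± 0.063, -0.55 ± 0.064 and -0.46 ± 0.075). Of 5 shared H2B probe sets 4 were lower, with the largest fall (-0.81 ± 0.055) in one of the 3 shared by H2BC4, H2BC6, H2BC7, H2BC8 and H2BC10. Of the 6 shared H4 probe sets 1 was lower (-0.41 ± 0.047), and the brightest of them was at 0.21 ± 0.083 and did not pass (adjusted p = 0.0798). Of 2 shared H3 probe sets 1 was lower (-0.54 ± 0.063) and 1 did not pass (0.047 ± 0.049). Of 2 shared by H3 genes with H2AC7, 1 was lower (-0.23 ± 0.038) and 1 did not pass (-0.17 ± 0.063), and the 1 shared by the variant genes H2AB1, H2AB2 and H2AB3 did not pass either (0.13 ± 0.073). The 3 that rose were all among the 4 shared by H3-3A, H3-3B and a pseudogene (0.15 to 0.23). These sets come from the same arrays and can bind transcripts of the genes above, so they are not independent of them.

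**Figure D3:**
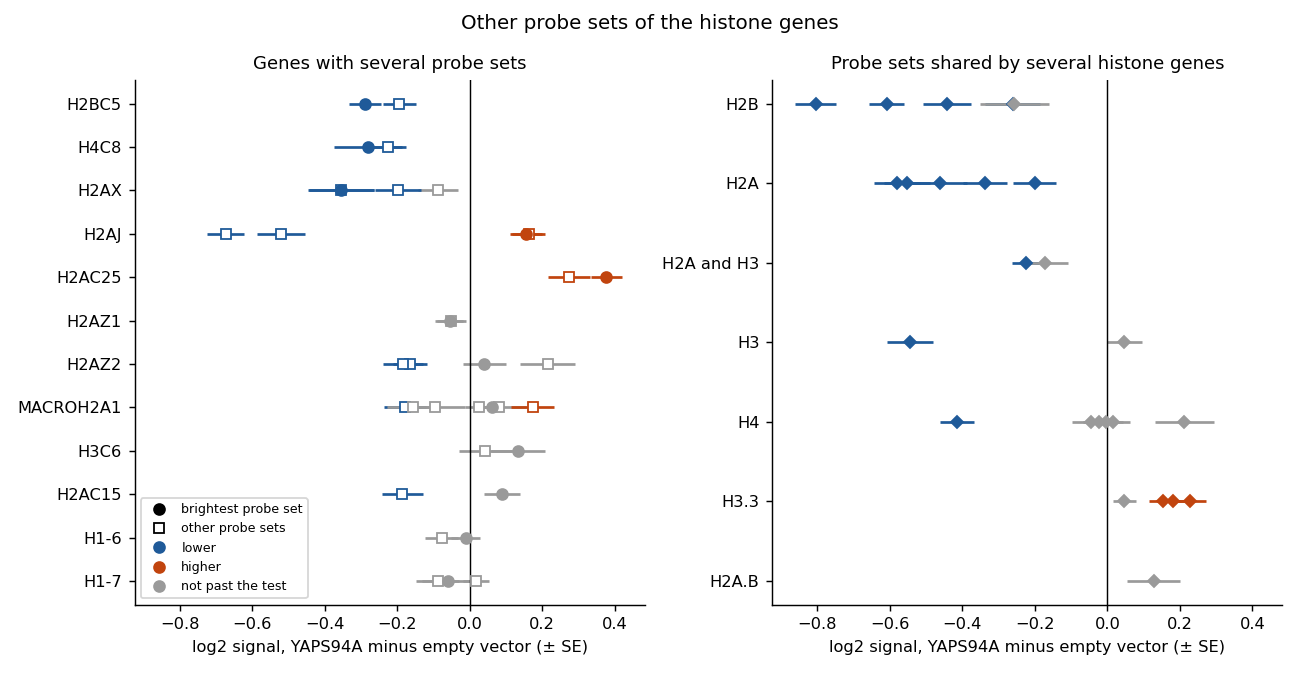
Difference in log2 signal, YAPS94A minus empty vector, with its standard error for every probe set of the histone genes that have several (left) and for the 25 probe sets annotated to several histone genes (right). H2AJ has bright probe sets above 0 and dim ones below 0, while the 5 shared by clustered H2A genes alone are below 0, the 1 shared by the H2AB genes is above 0, and the 4 shared by H3.3 genes are above 0.

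By the suffix of the probe set, 11 of the 36 histone genes read by plain _at probe sets were lower and 2 higher, against 6 of 8 lower and 1 higher with _x_at and 4 of 9 lower and 1 higher with _s_at. The median difference was -0.113, -0.382 and -0.054 in these 3 sets, and H1-6 alone is read by an _a_at probe set. Over all genes 17.6% were lower and 18.6% higher, and shares by suffix over all genes were not counted. The sets also differ in level. Of the 36 plain _at genes 7 had means at or below the lower quartile, against 0 with _x_at and 0 with _s_at. With each gene read by its brightest probe set without either suffix, 41 histone genes were left, of which 13 were lower and 2 higher.

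On chromosome 6, which carries 40 of the 54 genes, 18 were lower and none higher by limma's test (22 at an unadjusted p under 0.05). For all 19775 genes the shares were 17.6% lower and 18.6% higher, with 8524 genes at an unadjusted p under 0.05. In the long stretch from H1-1 to H4C8, 10 of 24 were lower with a median of -0.134, and genes that fell stood beside genes that did not. In the stretch from H2BC13 to H2BC17, 6 of 12 were lower (median -0.173), and of the 3 genes from H2BC11 to H4C9, 2 were lower. The nearest non-histone genes of these stretches had medians between 0.007 and 0.062. Relative to such neighbours, 25 of the 54 genes were lower and 4 higher. The neighbours' median was subtracted from the histone genes alone, so that fit has no matching share over all genes.

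Of the 51 histone genes with a promoter entry, 5 pairs on this chromosome start head to head within 1 kb. Histone genes without a probe set of their own were not searched for partners. H2BC4 (-1.10) and H2AC6 (-0.47), 246 bases apart, both fell, as did H2AC17 (-0.25) and H2BC17 (-0.26), 240 bases apart. H2AC14 fell (-0.22) while H2BC14, 245 bases away, did not pass (-0.06). Neither H2AC15 (0.089) nor H2BC15 (0.064), 194 bases apart, passed. H2BC9 fell (-0.77) beside H3C7, 979 bases away, which was at -0.09. The differences between partners were not tested.

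**Figure D4:**
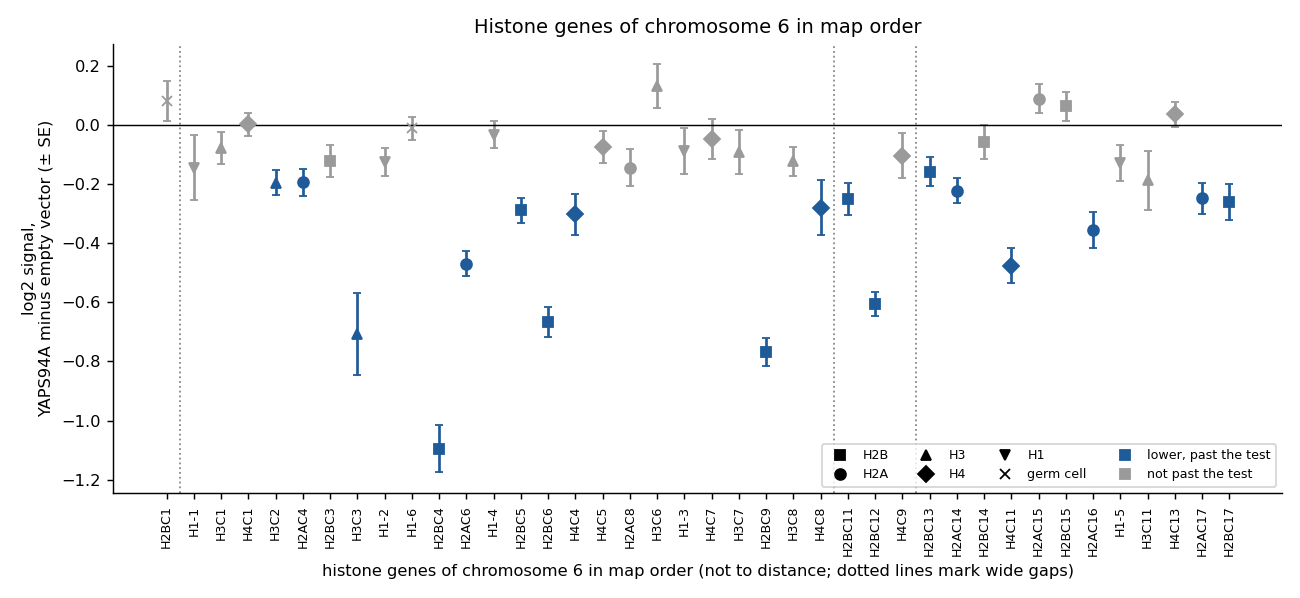
Difference in log2 signal, YAPS94A minus empty vector, with its standard error for the 40 histone genes of chromosome 6 in map order, with symbols for the class and dotted lines at the wide gaps. Genes that fell, such as H2BC4 and H2BC9, stand between genes near 0.

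Genes that make histone mRNA were mixed. Of 30 measured, 9 were lower and 4 higher (30% and 13.3%, median -0.105). Of all genes above the median level, as these 30 are, 25.9% were lower and 26.5% higher. The share that was lower thus lay near that background and the share that was higher below it. When array numbers were a block 20 of the 30 passed, but the share of all genes past that fit is not given here. NPAT, the co-activator of histone genes, rose, with 11.29, 11.27, 11.23, 11.22 and 11.23 with YAPS94A and 10.81, 10.88, 10.82, 10.85 and 10.89 with empty vector (0.40 ± 0.034, adjusted p = 1.83e-06). LSM11, a part of the U7 particle that cuts histone pre-mRNA, rose by 0.33 ± 0.046, while LSM10 (-0.33 ± 0.061) and ZNF473 (-0.35 ± 0.057) of the same machinery and the Sm protein SNRPD3 (-0.28 ± 0.030) fell. NCBP1 of the cap-binding complex fell (-0.33 ± 0.040), and TUT7, which adds uridines to histone mRNA during its decay, and the exonuclease gene XRN1 rose (0.14 ± 0.035 and 0.15 ± 0.040). SLBP read 11.34 ± 0.041 with YAPS94A and 11.34 ± 0.0081 with empty vector (SD, n = 5 each), with a 95% interval of the difference from -0.07 to 0.08. CASP8AP2 (FLASH), needed for the same cut, was at 0.13 ± 0.12 and did not pass (adjusted p = 0.458).

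Histone chaperones with related factors and genes of S phase did not move one way. The chaperone list also holds related factors such as HAT1, MCM2, SRCAP, YEATS4 and ZNHIT1. Of its 35 genes 8 were lower and 2 higher (22.9% and 5.71%, median -0.063), against 25.9% and 26.5% of all genes above the median level. Without empty vector array 3 the number that passed in either direction was 6. IPO4, an importin for H3 and H4, fell by 0.66 ± 0.12, HIRA, the H3.3 chaperone, by 0.57 ± 0.082, ASF1A by 0.31 ± 0.053 and YEATS4 by 0.21 ± 0.042. ASF1B, the paralogue of ASF1A used in dividing cells, rose by 0.39 ± 0.084 and ZNHIT1 by 0.14 ± 0.045. Of 34 genes of S phase 6 were higher and 4 lower (17.6% and 11.8%, median 0.053), against 26.5% higher and 25.9% lower among all genes above the median level, so neither list stood above that background. The transcription factor genes E2F2 and E2F1 rose by 0.71 ± 0.050 and 0.41 ± 0.079, as did TK1 (0.45 ± 0.048) and LIG1 (0.27 ± 0.054), which serve nucleotide supply and DNA ligation. CDC25A (-0.54 ± 0.072), CDC45 (-0.41 ± 0.043), CCNE1 (-0.22 ± 0.046) and E2F3 (-0.13 ± 0.035) fell. MCM2 is in both of these lists.

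**Figure D5:**
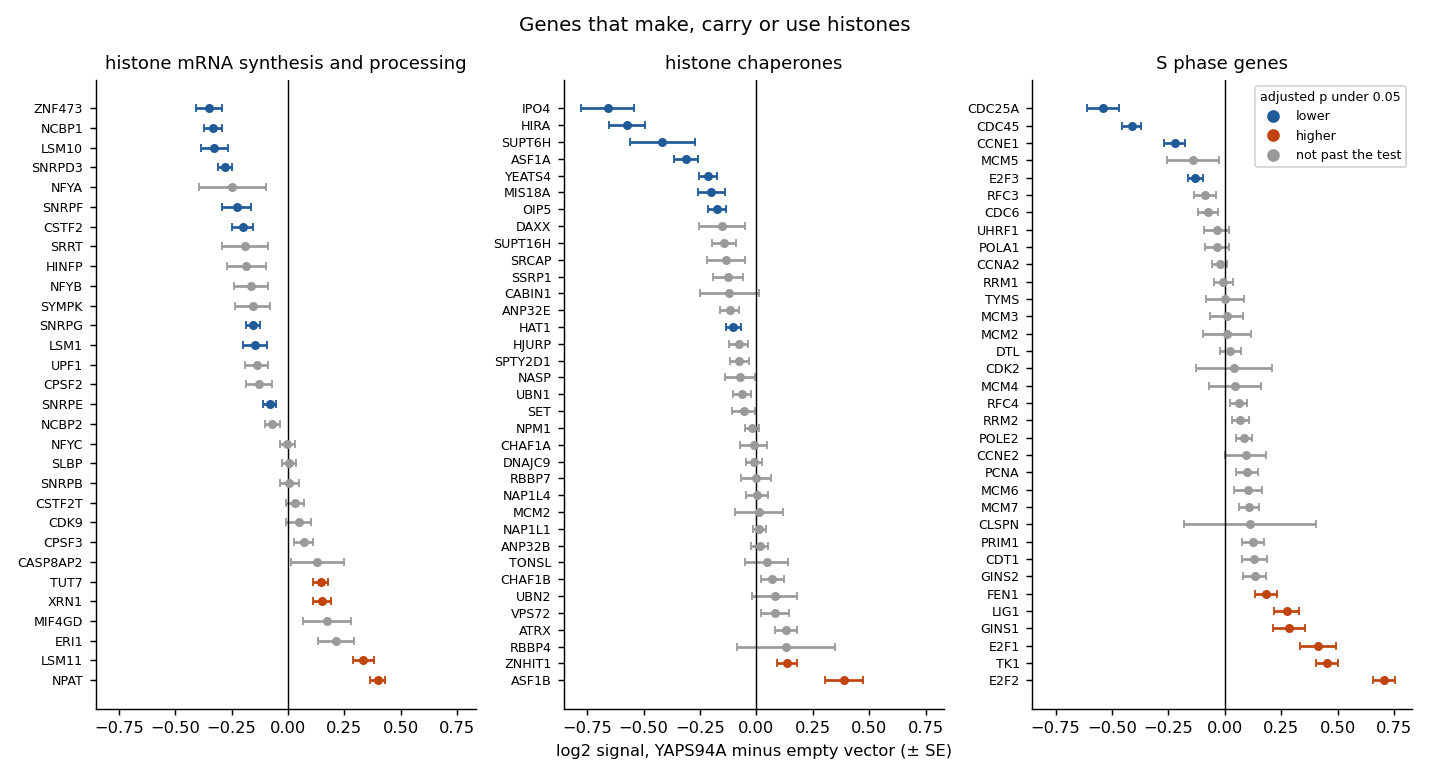
Difference in log2 signal, YAPS94A minus empty vector, with its standard error for the measured genes of histone mRNA synthesis and processing (left), histone chaperones and related factors (middle) and S phase (right). NPAT, ASF1B and E2F2 have the highest values of the 3 lists and ZNF473, IPO4 and CDC25A the lowest.

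YAP1 itself read 12.87, 12.53, 12.90, 12.92 and 13.01 with YAPS94A and 12.12, 12.05, 12.47, 12.48 and 12.49 with empty vector, and was 1.44-fold higher (0.52 ± 0.11, adjusted p = 0.00277). The 3′ minus 5′ signal of ACTB, a measure of RNA integrity, lay between 0.76 and 1.43 with YAPS94A and between 0.84 and 1.51 with empty vector (exact two-sided permutation p = 0.48). Arrays numbered 1 and 2 had the highest ACTB values of each group. Without these 4 arrays 17 histone genes were lower, with a median of -0.07 over the 54. How many of all genes passed in that fit is not given here. Bile duct markers were present, with 7 of 9 measured above the median level, though 5 rose and 2, CFTR (-3.90 ± 0.091) and SPP1 (-0.79 ± 0.12), fell. The mean of SPP1 lay below the lower quartile of gene means. The summed signal of the 9 was 87832 to 90445 with YAPS94A and 78630 to 80998 with empty vector. Of the markers of other cell types, LUM (2.67 ± 0.088) and CPS1 (1.52 ± 0.077) rose and LYZ (-1.48 ± 0.12) and SERPINA1 (-0.19 ± 0.042) fell. The summed signal of 5 fibroblast markers was 2084 to 2459 with YAPS94A and 774 to 965 with empty vector, with LUM alone past the test, while COL3A1 lay below the lower quartile of gene means. The sum of 6 hepatocyte markers was 7299 to 7709 with YAPS94A and 7501 to 8242 with empty vector. That of 5 leukocyte markers, none above the median level, was 255 to 271 with YAPS94A and 333 to 345 with empty vector. For 4 endothelial markers, also none above that level, it was 131 to 155 with YAPS94A and 142 to 153 with empty vector. The lowest value over all probe sets and arrays was 2.86, so no marker could read 0. The part of the markers in the histone results was not tested. The median deviation over the 54 histone genes lay between -0.153 and -0.092 on the 5 YAPS94A arrays and between -0.023 and 0.035 on the 5 empty vector arrays.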

How the data were processed

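The values are the log2 signals of 54675 Affymetrix probe sets as the authors deposited them. Biotin-labelled cDNA made with a NuGEN Ovation kit was hybridised, per the labels' protocols. The summary of probes and the normalization are not given in the sources used here. The medians of the 10 arrays ran from 6.25 to 6.28, and the values were used without further scaling. Precision is limited by the number of arrays, and signals are not molecule counts.

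Gene names came from GEO's platform annotation, updated with RefSeq's gene table (assembly GRCh38.p14), which held 41043 of the 41097 probe sets with 1 symbol. Another 1801 had several symbols and 11777 had none, and 62 control probe sets were left out. A gene's value is that of its brightest probe set over the 10 arrays. The vectors were compared with limma 3.58.1 in R 4.3.3 (lmFit and eBayes, 10 arrays, no covariate, two-sided, Benjamini-Hochberg over 19775 genes, threshold 0.05). Differences carry the standard error (SE) of that fit, and a fold is 2 to the power of the difference. The fit was tested on simulated data.

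The histone genes and gene lists were chosen with earlier results of these data known. All histone genes past the test are named, with the brightest of those that did not pass, and from each list the 4 members with the smallest p in each direction, besides NPAT, SLBP, CASP8AP2, E2F1 and YAP1. Across the groups, the deviations of same-numbered arrays correlated at 0.102 to 0.59, above 0.1 in all 5 pairs. Only 4 of the 10 arrays correlated best with the array of their own number. No batch is stated, and the main fit left the numbers out, with the block as an alternative. No 2 arrays were identical, with correlations of at most 0.9994. Alternatives covered renormalization, filters on dim genes, other probe sets, variance models, array weights, the block, arrays left out and neighbouring genes.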

Additional observations from a re-analysis of the deposited data

Results flagged for a closer look

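Of 158 groups of 5 arrays examined for 1 array far from the rest, chance alone would flag about 1 in 20, and 4 were found. H2AZ2 read 12.15 on YAPS94A array 2, with the other YAPS94A arrays at 11.95 to 12. H3C1 read 5.13 on YAPS94A array 5, against 5.36 to 5.39 on the others. H3C11 stood at 6.45 on empty vector array 3, where the other empty vector arrays were between 6.92 and 7.04, and H3C3 was also lowest on that array among empty vector arrays (8.95). CDC25A was at 11.27 on empty vector array 2 and between 10.94 and 11.02 on the others.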

How the results depend on the processing

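Over 22 alternatives, 20 of the 25 histone genes past the test kept their direction and their side of the threshold wherever they were measured. The exceptions were H2AJ, H2BC13, H2BC17, H3C3 and H4C8. The count of lower histone genes was 12 of 23 among genes above the median level and 13 of 41 without _x_at and _s_at probe sets, where 2 were higher, and both alternatives test fewer histone genes. Leaving out each array in turn gave 19 to 23 lower, 4 higher and a median of -0.133 to -0.099. The median was -0.07 without the arrays numbered 1 and 2 (17 lower) and -0.169 relative to neighbouring genes (25 lower). Shares of all genes past the test in each of these alternatives are not given here. H2AJ reversed to -0.219 when its probe sets were averaged and -0.52 on its brightest probe set without either suffix, H2AZ2 to -0.023 and -0.164 and MACROH2A1 to -0.013 and -0.096 in the same order, and MACROH2A1 also to -0.032 relative to neighbours. H1-10 lay between -0.075 and 0.009 over the arrays left out, above 0 without empty vector array 1 (0.004) or 2 (0.009), and at 0.016 relative to neighbours, where H2AZ1 was at 0.0. The cause was not tested. Without the arrays numbered 1 and 2, H2BC13 (-0.153, adjusted p = 0.0876), H2BC17 (-0.269, 0.0512), H3C3 (-0.591, 0.0532) and H4C8 (-0.069, 0.325) lost their calls, in a fit with fewer arrays, against -0.16, -0.26, -0.71 and -0.28 with all arrays. H4C8 also lost its call with array weights (0.1), with the block, and without YAPS94A array 1 or 2 or empty vector array 1, 2 or 3 (0.0545 to 0.0831). MACROH2A1 passed with the intensity trend (0.0493). With the array number as a block (replicate block), 21 histone genes were lower and 5 higher, H4C8 was the 1 histone gene past the test to lose its call, and YAP1 kept its call. The genes of histone mRNA synthesis and processing past the test numbered 20 with the block against 13 without it. The share of all genes past the test with the block is not given here. The genes of the chaperone list past the test numbered 6 to 12 over the arrays left out, against 10. H2AC16 and H2BC17 have means below the lower quartile of all genes, where signal over background was not measured.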
